A study of Mus musculus with 91 samples.

Results

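XY germ cells of the fetal mouse gonad were compared between embryonic day 11.5 (E11.5) and E12.5. The members are all transcript clusters of the array that name a single gene and reach a log2 intensity of 6 on at least 2 of the 3 arrays of either stage. This holds for 15138 clusters of 13783 genes, out of 16820 clusters tested in any group of the series and 35557 in the deposited table. Of the members, 14575 reached the limit at both stages, 272 at E11.5 alone and 291 at E12.5 alone. By the second-highest array of the higher stage, *Armcx3* (6.0002), *Trim10* (6.0004) and *Gpr155* (6.0004) lay just inside the limit, and *Bpifa2* (5.9997) and *Zfp941* (5.9996) just outside it. Where a gene has several clusters, the one with the highest mean over all arrays stands for it, which leaves 13780 genes to count.

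The cells were XY and carried the *Oct4-EGFP* transgene, Tg(Pou5f1-EGFP)2Mnn, in which part of the *Pou5f1* locus drives a green fluorescent protein. The embryos were progeny of CD-1 and C57BL/6J mice. Gonads of 1 or more litters were pooled, dissociated with trypsin and sorted for the fluorescence, and the RNA was amplified before it was labelled for the Affymetrix Mouse Gene 1.0 ST array. Each stage has 3 arrays of separate samples. XX germ cells of the same transgene and stages, 3 arrays each, and sorted XY interstitial cells, also 3 arrays each, serve for comparison and share no array with the XY germ cells. By the labels the E11.5 cells came from gonad and mesonephros together and the E12.5 cells from the gonad alone, so dissection and stage cannot be told apart, although the methods describe gonads left attached for this line. A sorted sample gives the mean level of its cells, so fewer cells that express a gene and less RNA per cell cannot be told apart either.

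Primordial germ cells reach the gonad with a pluripotency-like programme and erased DNA methylation, and there switch on genes of the germline such as *Ddx4* and *Dazl*. Over the following days the XX cells enter meiosis in response to retinoic acid, through *Stra8*. The XY cells, enclosed in testis cords, do not, and pass through a phase of Nodal signalling before they arrest and take up *Nanos2*, a repressor of meiosis and a hallmark of the fetal male germ cell. The interval described here runs from the gonad before cords form to the gonad in which they have formed.

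The 6 arrays had medians between 6.596 and 6.643 on the log2 scale. Arrays of the same stage correlated at 0.9872 to 0.9929 over the members and arrays of different stages at 0.9784 to 0.9832. The germ cell label held at both stages: *Pou5f1* (11.19, 11.13 and 10.98 at E11.5, and 10.65, 10.70 and 10.77 at E12.5), *Dppa3* and *Tdgf1* all stood above a log2 level of 10 on every array. All 12 germ cell markers were members, of which *Ddx4* rose and *Nanog*, *Nanos3* and *Tfap2c* fell, by the test described next. In a fit to the 18 germ cell arrays alone, 2 of the markers rose and 1 fell. Summed levels of supporting cell markers ran from 11.23 to 11.34 at E11.5 and from 11.18 to 11.36 at E12.5, against 14.3 in XY supporting cells of E12.5. Interstitial markers summed to 10.78 to 10.84 at E12.5 against 13.32 in their own cells, and endothelial markers to 10.14 to 10.23 against 13.99.

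Between the stages 166 genes rose and 200 fell, by an adjusted p under 0.05 in limma and a change over 1.5-fold. That is 1.2% and 1.45% of the member genes, or 2.66% in either direction, against which every list below is to be read. The risen genes had a median difference of 0.81 on the log2 scale, with 47 of them over 2-fold and 3 (*Mgst2*, *Hesx1* and *Cst9*) over 4-fold. The fallen genes had a median of -0.82, with 64 over 2-fold and 4 (*AU015836*, *Phlda2*, *H2bc4* and *Mt2*) over 4-fold. The median over all members was 0.01. Among the risen genes, 165 of 166 had all E12.5 arrays above all E11.5 arrays, as 13.8% of all member genes did. Among the fallen genes, 190 of 200 had no overlap, as 12.0% of all member genes did in that direction. The genes named below for the largest changes were picked among those without overlap, so its absence in them follows from that choice. Counted by cluster, 175 rose (1.16%) and 207 fell (1.37%), and without 1 array at a time 129 to 168 and 150 to 189 did.

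**Figure D1:**
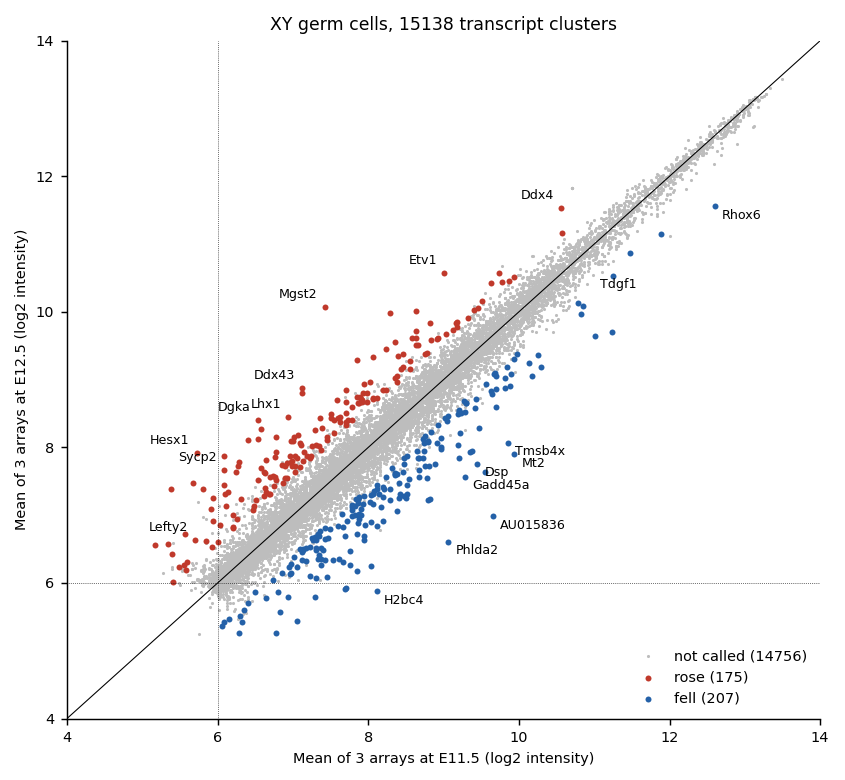
Mean log2 intensity of each member cluster in XY germ cells at E11.5 (horizontal axis) against E12.5 (vertical axis), with 3 arrays a stage. Each point is 1 of the 15138 clusters, dotted lines mark the limit of 6, and the coloured points, 175 clusters that rose and 207 that fell, lie on either side of the diagonal along which the other members lie.

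The gene with the largest rise was *Mgst2*, which encodes a microsomal glutathione S-transferase. It read 7.96, 7.46 and 6.84 on the E11.5 arrays and 10.20, 10.24 and 9.78 on the E12.5 arrays, with no overlap. The difference was 2.66 ± 0.32 (SE, n = 3 arrays a stage) on the log2 scale, or 6.31-fold, at an adjusted p of 1.4e-08 in limma. *Hesx1*, a homeobox repressor best known from the anterior forebrain and pituitary, read 5.70, 5.78 and 5.68 and then 8.06, 8.23 and 7.46. Its stages lay far apart, by 2.20 ± 0.14 (SE), or 4.59-fold (adjusted p = 6.4e-18). *Dgka*, a diacylglycerol kinase, read 6.57, 6.31 and 6.70 and then 8.42, 8.30 and 8.50, a rise of 1.88 ± 0.18 (SE) with all E12.5 arrays above all E11.5 arrays.

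The transcription factors *Etv1*, *Bnc2*, *Lhx1* and *Otx2* also rose. *Etv1*, an ETS factor that acts downstream of FGF signalling, read 9.32, 9.08 and 8.61 at E11.5 and 10.58, 10.60 and 10.57 at E12.5. The E12.5 arrays were almost level with each other and all above E11.5, by 1.57 ± 0.22 (SE). *Bnc2*, a zinc finger protein needed by male germ cells for their arrest and later meiosis, read 6.46, 6.74 and 6.54 and then 8.29, 8.25 and 8.26 (3.22-fold, adjusted p = 5.7e-08). *Lhx1*, a LIM homeobox factor with a part in the head organizer and the kidney ducts, rose by 1.51 ± 0.12 (SE), from 6.92, 7.17 and 6.74 to 8.30, 8.61 and 8.44. *Otx2*, a homeobox factor of the early epiblast, went from 5.47, 5.58 and 5.15 to 6.77, 6.58 and 5.93, again without overlap, a rise of 1.03. *Bnc2* and *Lhx1* were the only 2 of 8 mesonephric marker members called, both upward, while the other members of that list differed by -0.12 to 0.22; mesonephric markers summed to 9.74 to 9.79 at E11.5 and to 10.33 to 10.43 at E12.5, and the part of other cells in this was not tested.

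Many genes of the germline rose. Of 30 germ cell differentiation genes, 11 rose and 1 fell (median 0.54), where 1.2% and 1.45% of all members did. *Ddx4*, the germline RNA helicase also known as Vasa, read 10.53, 10.50 and 10.64 at E11.5 and 11.51, 11.44 and 11.64 at E12.5. The stages stood apart by 0.97 ± 0.22 (SE), or 1.96-fold (adjusted p = 0.00381). *Brdt*, a testis bromodomain protein, rose by 1.20, *Tex11*, which acts in meiotic recombination, by 1.49, and *Slc25a31*, a germline ADP/ATP carrier, by 1.14. *Rpl10l*, a germline copy of a ribosomal protein gene, was the member that fell, by 0.92 on the log2 scale. *Dazl*, an RNA-binding protein that licenses germ cells for sexual differentiation, read 10.17, 10.23 and 10.13 and then 10.80, 10.82 and 10.88. Its arrays did not overlap, yet its difference of 0.66 was not called over the 72 arrays (adjusted p = 0.146), whereas a fit to the 18 germ cell arrays alone gave 8.1e-05.

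The piRNA pathway, in which PIWI proteins and small RNAs silence transposons, had 7 of 20 members risen and 0 fallen (median 0.51). *Tdrd7*, a Tudor protein of germ granules, went from 6.75, 6.35 and 6.64 to 7.56, 7.72 and 7.80, a rise of 1.11 with no overlap. *Tdrd5*, of the same protein family, rose by 1.01 from 8.55, 9.0 and 8.90 to 10.06, 9.91 and 9.51. *Mael*, which acts in the silencing of transposons, rose by 0.98, *Tdrkh*, a Tudor partner of PIWI proteins, by 0.87, *Tdrd1* by 0.74 and *Mov10l1*, the helicase that processes piRNA precursors, by 0.72. *Ddx4* is the remaining risen member. With the 18 germ cell arrays in the fit *Tdrd1* was not called (adjusted p = 0.076), and 6 members rose.

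Meiotic genes rose in these XY cells as well, with 8 of 22 members called upward and 0 downward (median 0.31). *Sycp2*, a part of the chromosome axis of the synaptonemal complex, read 6.17, 6.43 and 5.63 and then 7.85, 7.82 and 7.32. The groups were apart by 1.59 ± 0.18 (SE), or 3-fold (adjusted p = 8.2e-09). *Sycp1*, its transverse filament, rose by 1.39 (7.17, 6.53 and 6.61 to 7.98, 8.52 and 7.97), and *Sycp3*, its other axial part, by 1.05 (8.39, 8.80 and 8.55 to 9.79, 9.58 and 9.50). *Spo11*, which makes the meiotic DNA breaks, rose by 1.15, *Dmc1*, the meiotic recombinase, by 0.97, *Hfm1*, a meiotic helicase, by 0.97, and *Smc1b*, a meiotic cohesin, by 0.83. *Tex12*, of the central element, read 5.87, 4.73 and 4.90 and then 7.01, 7.60 and 5.06. Its arrays overlapped, and its call (1.39, adjusted p = 0.0048) was lost without replicate 2 (0.87, adjusted p = 0.23) or replicate 1 of E12.5 (0.071), without replicate 2 of E11.5 (0.069), and with the 18 germ cell arrays (0.21) or only the compared arrays (0.26). *Dmc1* lost its call without replicate 1 of E11.5 (0.80, adjusted p = 0.075) or replicate 2 of E12.5 (0.68, adjusted p = 0.16), and *Smc1b* without replicate 3 of E11.5 (0.065) or replicate 2 of E12.5 (0.079). Without that last array 5 meiosis genes were called, as with only the compared arrays in the fit. *Hfm1* lost its call with the compared arrays (adjusted p = 0.1) and with the 18 germ cell arrays (0.077). In the fit to those 18 arrays 6 meiosis genes rose. *Stra8*, the gate to meiosis, was no member: it read 5.16, 5.21 and 5.41 and then 5.27, 5.43 and 5.37.

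**Figure D2:**
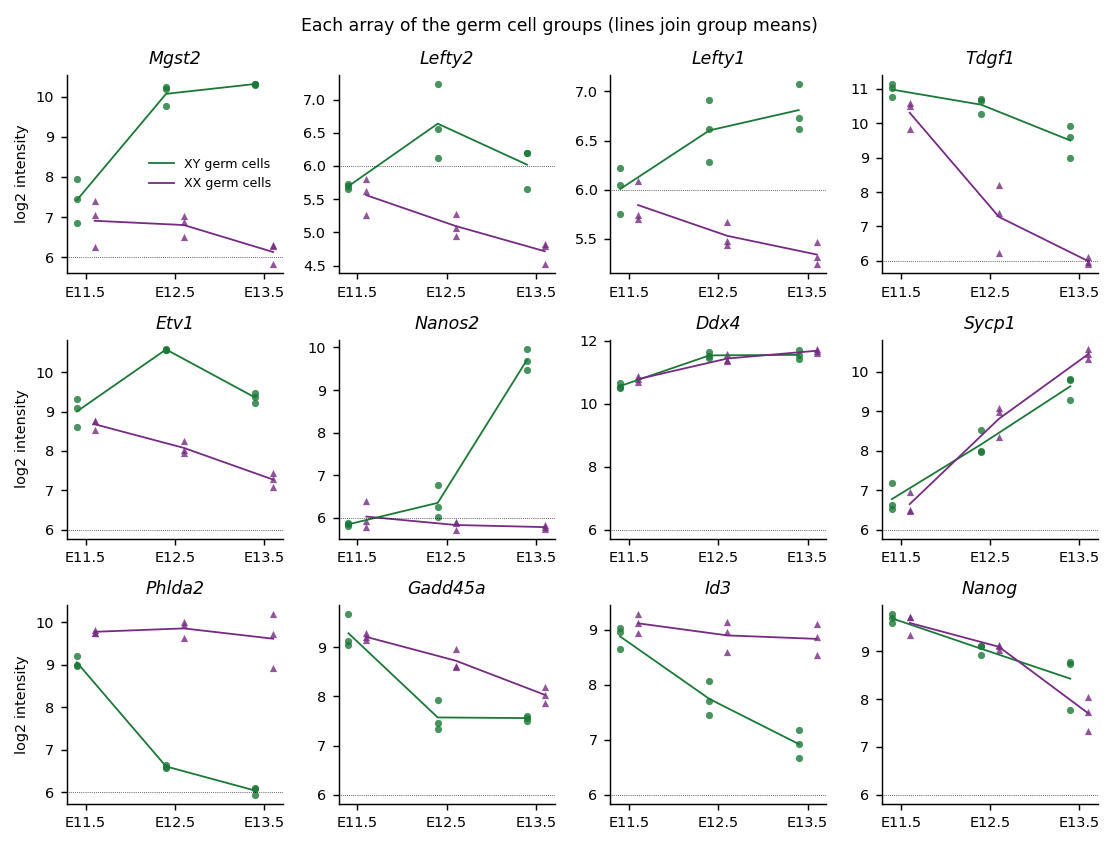
Log2 intensity of 12 genes on each array of XY (circles) and XX (triangles) germ cells, with the 3 stages on the horizontal axis, lines through the group means of 3 arrays and a dotted line at 6. In *Mgst2* the XY points rise from 6.84 to 7.96 at E11.5 to 9.78 to 10.24 at E12.5 while the XX mean differs by -0.10, and in *Phlda2* the XY points drop from 8.98 to 9.20 at E11.5 to 6.58 to 6.64 at E12.5.

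In Nodal signalling the ligand Nodal binds its co-receptor Cripto (*Tdgf1*) and induces the feedback inhibitors *Lefty1* and *Lefty2*. Both inhibitors rose, while neither the ligand nor the co-receptor was called. *Lefty2* read 5.73, 5.70 and 5.66 at E11.5 and 7.24, 6.55 and 6.12 at E12.5, a rise of 0.94 ± 0.17 (SE) with no overlap but a wide spread at E12.5 (adjusted p = 1.9e-04). With only the compared arrays in the fit its adjusted p was 0.069. *Lefty1* read 6.22, 6.05 and 5.75 and then 6.62, 6.91 and 6.28. Its rise of 0.60 did not meet the fold limit without replicate 3 of E11.5 (0.47, adjusted p = 0.041), and neither limit was met without replicate 2 of E12.5 (0.44, adjusted p = 0.058). Its adjusted p was 0.10 with only the compared arrays and 0.051 with the 18 germ cell arrays, so that in the fit to the compared arrays 0 members of the pathway rose. *Nodal* was not called, at 7.37, 7.31 and 7.21 and then 7.30, 7.33 and 7.25. *Tdgf1* read 10.76, 11.15 and 11.02 and then 10.71, 10.27 and 10.63, high at both stages (-0.44 ± 0.23 SE, adjusted p = 0.474). The 2 *Lefty* genes were the risen members of 17 in the pathway, and 0 fell (median 0.04).

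Of 17 genes of the fetal male germ cell, 6 rose and 1 fell (median 0.51). The risen ones were *Mgst2*, *Aldh1a1*, *Tdrd5*, *Mov10l1* and both *Lefty* genes, and *Morc1*, which silences transposons in male germ cells, fell by 0.90 on the log2 scale. The list was drawn up with these results in view, so its count is no independent evidence of its direction. The same limit holds for the other lists, which were chosen with earlier results of these data known. Some lists also share risen members, such as *Ddx4* and *Mov10l1*, so their counts are not separate from each other. *Nanos2* read 5.85, 5.87 and 5.81 at E11.5 and 6.25, 6.77 and 6.02 at E12.5. All E12.5 arrays were higher, but the difference of 0.51 (1.42-fold, adjusted p = 0.00423) was under the fold limit. *Aldh1a1*, which makes retinoic acid, rose by 1.36 from 6.12, 6.06 and 6.10 to 7.74, 7.36 and 7.26. It rose by 1.42 in XY interstitial cells too, at far higher levels of 9.29 and 10.70.

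The promoters of the risen members of these 4 lists (germ cell differentiation, piRNA, meiosis and fetal male genes) were read for 2 short motifs. The window runs from 250 bases before to 50 after the annotated start (RefSeq, GRCm38.p6), and the motifs searched on both strands were the E-box CACGTG, which reads alike on both, and GCGGGAA, a form of the E2F site. Promoters were found for 21 of the 25 risen list members, and a gene was counted when any of its promoters held the motif. An E-box was held by 9 of these 21 genes (42.9%), against 11.3% of all member genes with a promoter and 8.09% of all 27025 genes of the table. GCGGGAA was held by 7 genes (33.3%), against 9.42% and 5.29%. Of all list members with a promoter, risen or not, 32.3% and 24.2% held them, and of the 133 risen genes with a promoter 16.5% and 14.3%. The following 4 promoters hold both motifs and are shown because they stand for a germ cell, a mitochondrial and 2 meiotic genes described above, with the motifs in capitals (TTCCCGC is GCGGGAA on the other strand).
Ddx4, chr13:112652261-112652560, minus strand: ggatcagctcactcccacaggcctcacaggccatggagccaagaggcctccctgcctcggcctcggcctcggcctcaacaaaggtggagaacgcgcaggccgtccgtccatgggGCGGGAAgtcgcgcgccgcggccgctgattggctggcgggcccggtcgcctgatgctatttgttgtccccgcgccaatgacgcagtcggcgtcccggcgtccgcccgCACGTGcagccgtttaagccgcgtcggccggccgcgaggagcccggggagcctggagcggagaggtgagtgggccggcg
Sycp3, chr10:88459337-88459636, plus strand: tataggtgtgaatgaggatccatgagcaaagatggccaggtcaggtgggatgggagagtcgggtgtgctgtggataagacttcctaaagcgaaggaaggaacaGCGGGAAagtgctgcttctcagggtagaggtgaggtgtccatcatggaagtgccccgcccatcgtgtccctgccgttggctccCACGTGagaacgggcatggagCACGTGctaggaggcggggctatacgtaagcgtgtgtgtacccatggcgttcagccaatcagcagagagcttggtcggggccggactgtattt
Tex12, chr9:50561219-50561518, minus strand: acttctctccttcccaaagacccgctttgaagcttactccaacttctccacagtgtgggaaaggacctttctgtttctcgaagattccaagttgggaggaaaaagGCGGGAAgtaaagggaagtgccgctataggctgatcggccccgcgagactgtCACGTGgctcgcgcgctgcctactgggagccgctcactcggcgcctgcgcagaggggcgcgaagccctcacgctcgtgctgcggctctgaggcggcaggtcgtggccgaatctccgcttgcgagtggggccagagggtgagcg
Slc25a31, chr3:40708621-40708920, plus strand: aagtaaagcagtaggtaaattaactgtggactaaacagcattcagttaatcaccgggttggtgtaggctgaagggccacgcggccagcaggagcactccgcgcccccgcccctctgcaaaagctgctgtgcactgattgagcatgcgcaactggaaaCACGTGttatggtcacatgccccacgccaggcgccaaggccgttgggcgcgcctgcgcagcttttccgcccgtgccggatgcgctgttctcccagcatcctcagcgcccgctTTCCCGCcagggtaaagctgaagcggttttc
A match is a description of the letters in the window, and binding was not measured.

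The genes that fell included several known from the primordial germ cell. Of 15 such genes 4 fell and 0 rose (median -0.25). *Alpl*, the tissue-nonspecific alkaline phosphatase by which these cells are classically stained, read 9.27, 9.48 and 9.39 and then 7.70, 8.38 and 7.75, a drop of 1.44 ± 0.14 (SE) on the log2 scale with no overlap (adjusted p = 3.3e-11). *Rhox6*, an X-linked homeobox gene, read 12.43, 12.70 and 12.68 and then 11.51, 11.58 and 11.59. *Tfap2c*, a specification factor, was 2-fold lower (8.58, 8.78 and 8.26 to 7.74, 7.70 and 7.20). Its call was lost with the 18 germ cell arrays in the fit (adjusted p = 0.13), where 3 members of the list fell. *Nanos3*, which protects migrating germ cells from death, fell by 0.64 on the log2 scale, but its adjusted p of 0.0451 lay just under the limit and its call was lost in 5 of 6 fits without 1 array. *Kit*, the receptor for stem cell factor, was not called, at 10.22, 10.35 and 10.24 and then 10.24, 10.26 and 10.29.

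Of 24 pluripotency factors 3 fell and 1, *Otx2*, rose (median -0.15). *Tfcp2l1* and *Esrrb*, both factors of naive pluripotency, fell by 0.98 and 0.84 on the log2 scale. *Nanog* read 9.69, 9.78 and 9.60 and then 8.93, 9.11 and 9.12, a change of -0.63 ± 0.15 (SE) and 1.55-fold with no overlap. Without replicate 1 of E12.5 its difference was -0.57 and no longer over the fold limit. With the 18 germ cell arrays in the fit its call was lost as well (adjusted p = 0.12). *Sox2* stood at 9.83, 9.71 and 9.62 and then at 9.41, 9.13 and 9.32, lower on every E12.5 array but not called (-0.43, adjusted p = 0.236). *Pou5f1* was not called either (-0.39, adjusted p = 0.674).

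Imprinted genes, which somatic tissues express from 1 parental allele, had 7 of 21 members fallen and 1 risen (median -0.21). The arrays do not tell the alleles apart. The largest fall was that of *Phlda2*, which restrains placental growth. It read 8.98, 9.20 and 9.0 at E11.5 and 6.6, 6.64 and 6.58 at E12.5. The stages were apart by -2.45 ± 0.14 (SE), or 5.48-fold (adjusted p = 4.9e-19), the smallest adjusted p of the genes named here. *Peg10* fell by 1.19, *Impact* by 1.12, *Slc38a4*, an amino acid transporter, by 1.10, *Grb10*, an inhibitor of insulin signalling, by 1.01, *Peg3* by 0.72 and *Igf2* by 0.65 on the log2 scale. The call of *Igf2* was lost without replicate 1 or 2 of either stage (adjusted p from 0.057 to 0.25). *Usp29*, the neighbour of *Peg3*, was the member that rose, by 0.77. Without 1 array at a time 6 to 7 members fell.

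BMP signals and their targets had 3 of 21 members fallen and 1 risen (median -0.07). *Id3*, an inhibitor of basic helix-loop-helix factors and a direct BMP target, read 9.03, 8.96 and 8.65 and then 7.71, 8.07 and 7.45, a drop of 1.13 ± 0.22 (SE) on the log2 scale. *Id2* fell by 1.09, a call lost without replicate 1 (adjusted p = 0.059) or 2 (0.07) of E11.5 and without replicate 2 of E12.5 (0.052), and *Msx2*, a homeobox target, fell by 0.68. The ligand *Bmp4* was the member that rose, by 0.85, from 7.82, 7.52 and 7.45 to 8.26, 8.54 and 8.52. Without replicate 2 of E11.5 only 1 member of the list fell.

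Some stress and growth arrest genes fell. *Gadd45a*, induced by DNA damage and also linked to DNA demethylation, read 9.05, 9.68 and 9.13 and then 7.92, 7.46 and 7.34 (3.27-fold, adjusted p = 6.1e-11). *Gadd45b* fell by 0.67 on the log2 scale. Of 17 genes that respond to dissociation and handling, 4 fell (*Jun*, *Ier3*, *Klf6* and *Ier2*) and 0 rose, with a median of -0.35. The median was -0.36 in XX cells, in which limma called 0 of them. *Jun*, an immediate early factor, fell by 1.27 on the log2 scale, a call lost with the 18 germ cell arrays (adjusted p = 0.091). Without replicate 1 or 2 of E11.5, or replicate 2 of E12.5, 2 of them were called. *Mt2*, a metallothionein, read 10.03, 10.11 and 9.69 and then 8.43, 7.70 and 7.56, and *H2bc4*, a histone H2B gene, 7.85, 8.30 and 8.17 and then 5.90, 5.51 and 6.23. The part of handling in these changes was not tested.

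Other large falls were seen in genes of varied function. *AU015836*, an X-linked gene of unknown role, read 9.58, 9.67 and 9.70 at E11.5 and 7.25, 6.90 and 6.83 at E12.5, a difference of -2.66 ± 0.35 (SE), or 6.31-fold (adjusted p = 1.6e-07). *Dsp*, the desmosomal plaque protein desmoplakin, read 9.43, 9.36 and 9.57 and then 7.91, 7.55 and 7.82 (3.24-fold). *Lrrc34* read 11.13, 11.27 and 11.32 and then 9.85, 9.48 and 9.81 (2.88-fold). *Scd1*, a fatty acid desaturase, and *Porcn*, which lipidates Wnt proteins, fell by 1.5 and 1.59 on the log2 scale. In each of these the stages did not overlap, which was a condition for naming genes by the size of their change.

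Cell cycle, replication and energy genes gave few calls or none. Cyclins and their kinases (21 members), DNA replication genes (28), mitotic spindle genes (22), ribosome biogenesis genes (27), respiratory chain genes (31), Wnt targets (16) and Y-linked genes (5) had 0 members called in either direction, where 2.66% of all members were. At that share lists of this size often hold none, so the counts do not set these genes apart. *Pcna*, the replication clamp, stood at 12.56, 12.65 and 12.49 and then at 12.52, 12.53 and 12.46. Among cell cycle inhibitors, *Rb1*, the retinoblastoma protein, was the 1 of 11 that rose (0.85), and *Pmaip1*, a pro-apoptotic BH3 protein, was the 1 of 16 of the Bcl2 family (0.81). Of 23 genes of DNA methylation and demethylation 1 rose and 2 fell: *Uhrf1*, which brings *Dnmt1* to replicated DNA, rose by 0.67, a call lost without replicate 3 of E11.5 (0.53), and both *Gadd45* genes are the fallen ones. *Dnmt1* and *Tet1* stood at means of 11.19 and 11.82 at E11.5 and of 11.31 and 11.99 at E12.5.

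In the remaining lists 1 to 4 members were called. For histone modifiers (2.94%) and FGF signalling genes (5.26%) that is near the 2.66% of all members. *Etv1* was the 1 of 19 FGF signalling genes that rose. Of 16 retinoic acid genes *Aldh1a1* rose and *Crabp1*, a retinoic acid binding protein, fell by 0.85 on the log2 scale, a call lost without replicate 2 of E11.5 (-0.65, adjusted p = 0.25) and without replicate 2 (0.073) or 3 (0.13) of E12.5. *Bmi1*, of Polycomb, was the 1 of 34 histone modifiers that rose (0.64), but it was under the fold limit without replicate 1 of E11.5 (0.57) or replicate 2 of E12.5 (0.55). Of 22 glutathione genes *Mgst2* rose and *Gsta4* fell by 0.77 on the log2 scale (adjusted p = 0.0473), a call lost in all 6 fits without 1 array (adjusted p from 0.10 to 0.16). Of 21 glycolysis genes *Pfkp* and *Ldha* fell, by 0.83 and 0.68 on the log2 scale. *Pfkp* lost its call without replicate 3 of E11.5 (adjusted p = 0.13) and without replicate 2 (0.06) or 3 (0.055) of E12.5, and *Ldha* without replicate 2 of E11.5 (-0.56, under the fold limit). Of 26 RNA-binding proteins *Cpeb1*, which controls translation in germ cells, and *Ddx4* rose and *Nanos3* fell. Of 27 adhesion genes the integrins *Itga6* (1.15) and *Itgb5* (0.96) rose, and *Cd24a*, a surface antigen, fell by 0.74 on the log2 scale, as did *Dsp*.

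**Figure D3:**
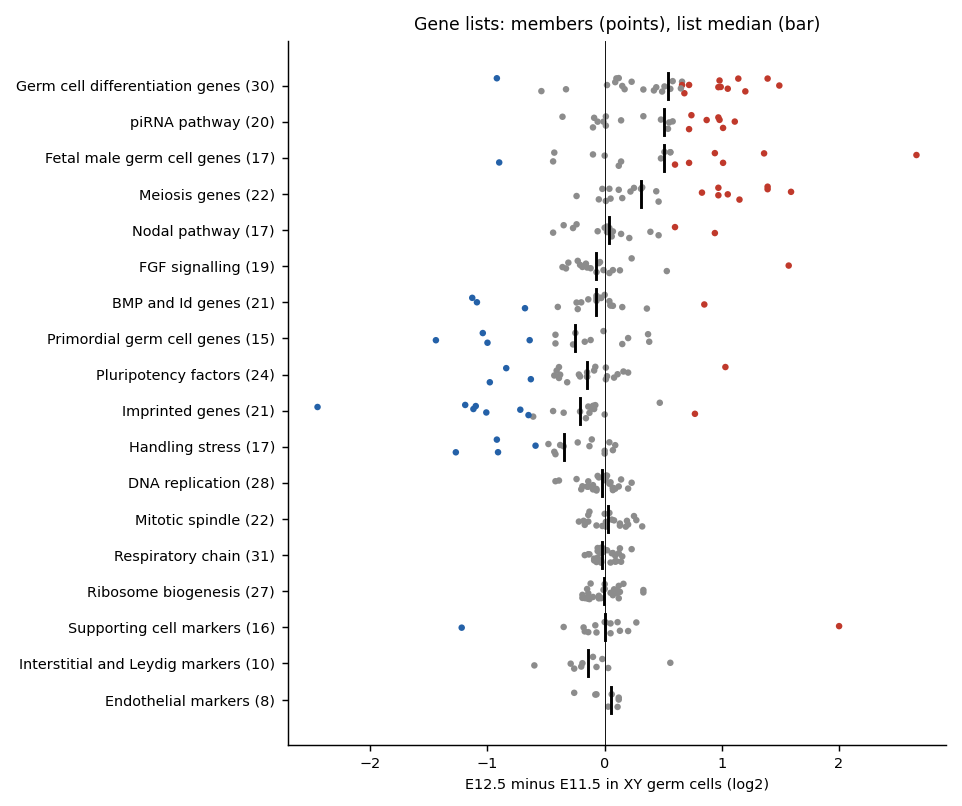
Log2 difference E12.5 minus E11.5 in XY germ cells (horizontal axis) for the members of 18 gene lists, 1 row a list, with each point a gene (red rose, blue fell, grey not called) and the black bar at the list's median. The bars of germ cell differentiation (0.54), piRNA (0.51) and meiosis genes (0.31) lie right of 0, and that of imprinted genes (-0.21) left of it.

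Of the markers of other cells, 12.5% of the supporting cell and 25.0% of the mesonephric members were called, against 2.66% of all members. Interstitial (10 members), endothelial (8), macrophage (6) and red blood cell (5) markers had 0 called in limma. At the share of all members, lists this short mostly hold none. Red blood cell markers summed to 10.12 to 10.80 at E11.5 and to 9.79 to 10.05 at E12.5, and macrophage markers to 10.02 to 10.11 and to 9.84 to 9.92. Of 16 supporting cell markers, *Cst9*, a cystatin of Sertoli cells, rose (5.98, 5.40 and 4.75 to 7.73, 7.18 and 7.23, 4.01-fold) and *Nr0b1* fell by 1.22 on the log2 scale, a call lost without replicate 1 of E11.5 (adjusted p = 0.081) or replicate 2 of E12.5 (0.092). *Sox9* and *Amh*, the defining Sertoli genes, went from means of 7.72 and 5.86 to 7.77 and 5.90 and were not called. *Cst9* averaged 11.74 in XY supporting cells and rose from 7.98 to 11.06 in XY interstitial cells. The part of other cells in its rise was not tested.

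Fallen genes were unevenly spread over the chromosomes, a pattern noticed after the values were seen and given with no test. The X chromosome holds 430 of the member genes (3.12%) but 29 of the 200 that fell (14.5%), so 6.74% of its members fell against 1.29% of autosomal ones. The next highest share was 2.44%, on chromosome 16. Of the risen genes 9 were X-linked (5.42%). The median over all X-linked members was -0.02 against 0.01 for autosomal ones. Besides *AU015836* and *Rhox6* the fallen X-linked genes include *Tmsb4x*, which encodes an actin-binding thymosin (9.95, 10.08 and 9.52 to 8.10, 8.32 and 7.79), *Map7d3*, a microtubule-associated protein, and *Klhl13*, a ubiquitin ligase adaptor (9.71, 9.85 and 9.55 to 8.68, 8.34 and 8.75). The 29 had a median of -1.08 in XY cells, -0.25 in XX cells and -0.02 in XY interstitial cells. They were picked for their fall in XY cells, so a smaller median elsewhere follows in part from that choice. The autosomal genes that fell had medians of -0.82 in XY and -0.36 in XX cells. In XX cells 24 of the 29 X-linked genes had a difference below 0, and 5 (*Tmsb4x*, *Map7d3*, *Gm9*, *Tspan6* and *Mid1ip1*) were called lower. The difference between the sexes was called for 5 of the 29 (*AU015836*, *1700013H16Rik*, *Porcn*, *Pls3* and *Ints6l*). Leaving out 1 array at a time, the X-linked share of the fallen genes was 12.6 to 15.8%.

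**Figure D4:**
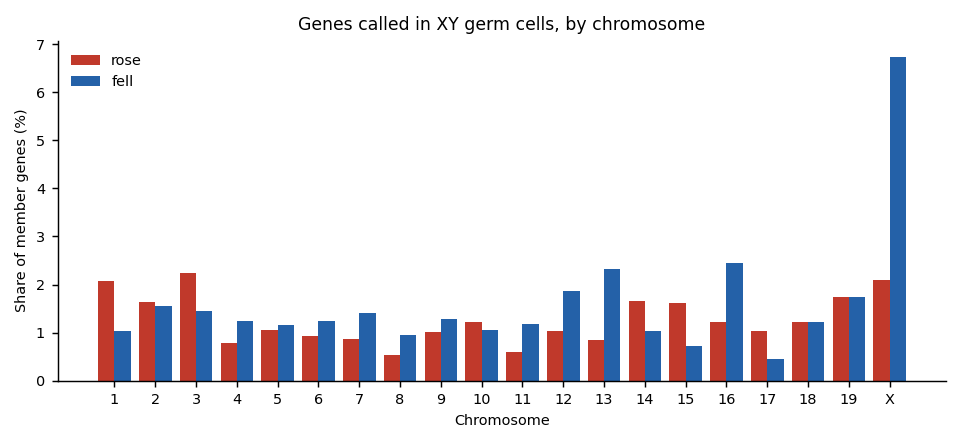
Share of member genes that rose and that fell between E11.5 and E12.5 in XY germ cells, in percent, for each chromosome, without the Y chromosome. The bar of fallen genes for the X chromosome stands at 6.74%, above 2.44% for chromosome 16, the next highest.

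Of 107 microRNA genes among the members, 0 rose and 1 fell. *Mir17* read 7.36, 7.92 and 7.89 and then 7.15, 6.90 and 6.70, a difference of -0.80 with an adjusted p of 0.0463, named after its value was seen. The call was kept only without replicate 1 of E11.5 (adjusted p = 0.026), and in the other 5 fits without 1 array the adjusted p was between 0.05 and 0.24. Its host transcript *Mir17hg* differed by -0.17 and was not called. A gene array reads mostly the precursor, so the mature strand is printed only for its identity, from RefSeq (GRCm38.p6, chr14:115043684-115043706, plus strand) with the seed, bases 2 to 8, in capitals.
miR-17-5p: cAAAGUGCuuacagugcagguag

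The change with stage was set against that in XX germ cells, where 291 member genes rose (2.11%) and 146 fell (1.06%). Of the 166 genes that rose in XY cells, 145 also had a positive difference in XX cells, 76 were called there, and 0 were called the opposite way. Of the 200 that fell, 165 had a negative difference in XX cells, 45 were called, and 2 were called the opposite way, *1700013H16Rik* (-1.61 in XY and 0.76 in XX) and *M1ap* (-0.81 and 0.60). The difference between the steps was tested itself. It was called for 37 genes further up in XY (0.269%) and 66 further down (0.479%). Among them, 20 of the genes risen in XY rose further than in XX and 30 of the fallen ones fell further. The opposite was called for 2 of the risen and 0 of the fallen genes. These genes were picked by the same XY arrays that the difference uses, so the excess follows in part from that choice. In clusters the calls of the difference over all members number 40 (0.264%) and 68 (0.449%). The latter count was 34 without replicate 2 of E11.5 and 44 without replicate 2 or replicate 3 of E12.5.

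For the meiotic and piRNA genes named above other than *Stra8*, no difference of the steps was called, which does not show that they are alike. Over the 22 meiosis members the median was 0.31 with 8 risen in XY cells and 0.62 with 11 risen in XX cells, and 1 member, *Rec8*, a meiotic cohesin (-0.05 in XY and 0.89 in XX), was called further down in XY (difference of steps -0.95, adjusted p = 0.0109). *Sycp1* rose by 1.39 in XY and by 2.16 in XX, a difference that was not called (adjusted p = 0.651). *Sycp2* rose by 1.59 in XY and by 1.66 in XX cells, and the difference of the steps had a 95% interval of -0.59 to 0.45. *Ccdc172*, *Ddx43* and *Tex11* rose by 1.80, 1.76 and 1.49 in XY and by 1.81, 1.44 and 1.37 in XX. *Stra8* was the large exception, with 0.09 in XY against 2.38 in XX (difference of steps -2.29, adjusted p = 1.6e-11).

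Other genes had a step that differed between the sexes, in both directions. *Mgst2* differed by 2.66 in XY and by -0.10 in XX (difference of steps 2.76 ± 0.45 SE, adjusted p = 7.3e-05). *Hesx1* (0.04 in XX), *Krt222* (-0.20), *Lhx1* (0.16) and *Dgka* (0.27) had differences of the steps of 2.16, 1.79, 1.35 and 1.61. *Etv1* rose by 1.57 in XY and stood 0.60 lower in XX, where it was not called (difference of steps 2.18, adjusted p = 3.9e-06). *Phlda2* stood at 0.08 in XX, with a difference of steps of -2.54 (adjusted p = 1.4e-13), and *Grb10* likewise (0.05, difference of steps -1.06, adjusted p = 0.0101). Of the 21 imprinted members *Plagl1* rose and 0 fell in XX cells, and *Plagl1*, *Grb10* and *Phlda2* were called further down in XY than in XX.

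For *Tdgf1* the sexes parted through the XX cells: it fell by 3.03 on the log2 scale there, from a mean of 10.30 to 7.27, while XY cells kept 10.54. The difference of the steps was 2.59 ± 0.33 (SE, adjusted p = 3.3e-07), but 0.072 with only the 12 arrays of the 4 groups in the fit. In the same way the adjusted p of the difference between the sexes was 0.11 for *Lefty2*, 0.15 for *Lefty1*, 0.13 for *Otx2*, 0.11 for *Scd1*, 0.077 for *Porcn* and 0.073 for *Gadd45a* with those 12 arrays. For *Plaat3*, a phospholipase (-1.50), it was 0.084 with those arrays, 0.052 with the 18 germ cell arrays and 0.07 without replicate 2 of E11.5. The difference for *Lrrc34* (-1.45) was lost in every fit without 1 array.

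**Figure D5:**
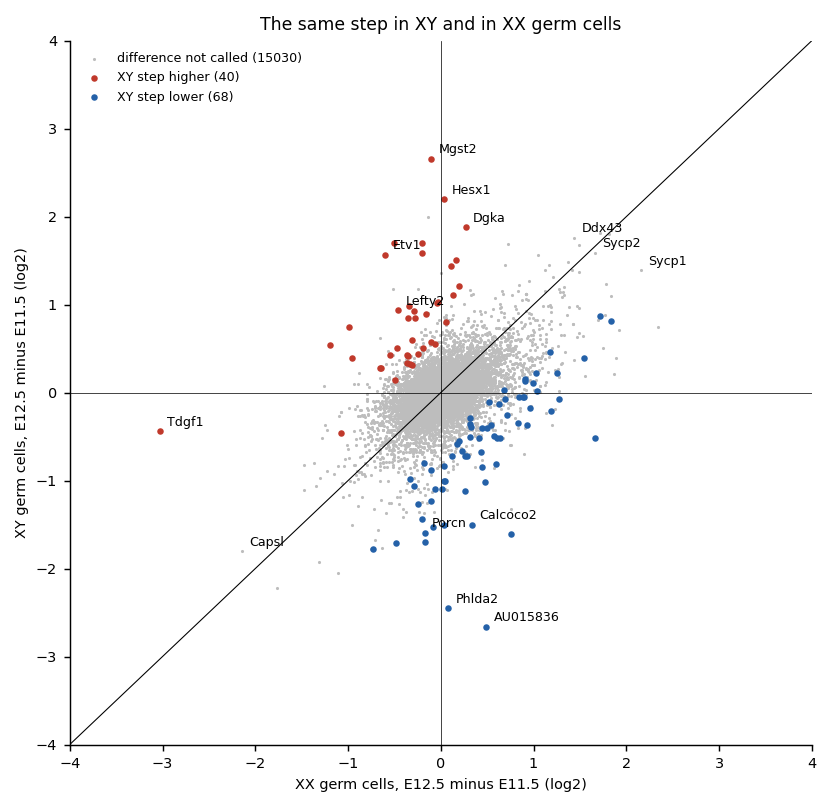
Log2 difference E12.5 minus E11.5 in XX germ cells (horizontal axis) against XY germ cells (vertical axis) for all 15138 member clusters, with the 40 whose XY step was called higher than the XX step in red and the 68 called lower in blue. *Mgst2* and *Hesx1* lie high and near 0 on the horizontal axis, *Etv1* high and left of 0, and *Phlda2* and *AU015836* low and right of 0.

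In XY interstitial cells of the same ages 154 member genes rose (1.12%) and 172 fell (1.25%). Of the genes that rose in XY germ cells 5 (*Cst9*, *Gatm*, *Me1*, *Aldh1a1* and *Sgk3*) were called higher in interstitial cells as well, which is 5 of 166, and of the 200 that fell 13 were called lower. The call of *Gatm* in germ cells was lost in 4 of 6 fits without 1 array and that of *Sgk3* in 2. The difference between the steps of the lineages was called for 213 genes further up (1.55%) and 212 further down (1.54%) in germ cells, or 227 (1.5%) and 228 (1.51%) clusters. A further change in germ cells was called for 96 of the 166 risen and 93 of the 200 fallen genes. These genes were picked by their germ cell change, which favours that direction. *AU015836* is the extreme case, since it fell in germ cells and went from 7.16 to 9.34 in interstitial cells (difference of steps -4.83). *Bnc2* differed by 2.13 and *Dsp* by -2.43.

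The E13.5 arrays, which were not part of the choice, show where levels stood a day later. The later step shares the E12.5 arrays, so the values are only set side by side. *Mgst2* averaged 10.07 at E12.5 and 10.32 at E13.5, and *Ddx4* 11.53 and 11.55. *Nanos2* stood at 6.35 and 9.71, *Bnc2* at 8.27 and 10.46, *Hesx1* at 7.92 and 9.18 and *Sycp1* at 8.16 and 9.63, all above their E12.5 means. *Etv1* (10.58 and 9.36), *Lefty2* (6.64 and 6.02), *Phlda2* (6.61 and 6.04), *Otx2* (6.43 and 5.97) and *Kit* (10.26 and 9.08) stood lower at E13.5 than at E12.5. *Rhox6* (11.56 and 9.61) and *Lrrc34* (9.71 and 7.68) went further down.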

How the data were processed

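RNA of sorted XY germ cells was amplified with the Nugen WT-Ovation Pico kit and hybridised to Affymetrix Mouse Gene 1.0 ST arrays. The values are the log2 intensities that the authors deposited, which they made with GCOS and Partek by RMA with an adjustment for probe sequence. The methods describe a processing of all 91 arrays and another of 72, and which of them was deposited is not stated. Genes were named from the platform annotation, with symbols updated through Entrez IDs, and clusters with several genes were left out. All 24 groups of supporting, interstitial, germ and endothelial cells (72 arrays) were fitted with 1 mean a group in limma 3.58.1 (lmFit and eBayes, R 4.3.3), with 48 residual degrees of freedom and Benjamini-Hochberg adjustment over the 16820 clusters. A gene was called at an adjusted p under 0.05 and a fold over 1.5. The fit was run on simulated data with independent noise of the same spread in all groups, so that run cannot show how it performs where spreads differ. With 3 arrays a group the number of arrays limits the precision. The SEs and p-values rest on the spread within groups shared over all 72 arrays. They are therefore not the spread of the XY germ cell arrays alone, which can be wider for single genes.

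Named genes are the 15 in each direction with the largest change among called genes whose arrays do not overlap, without locus names. Up to 4 called members of each list are named or, where none was called, its 2 of highest level. Also named are the 8 in each direction with the largest called difference from the XX or interstitial step. These 8 had to be called in the XY germ cell step too. A fixed set (*Tdgf1* and *Nanos2* among them) was added. Other list members named above were chosen after their values were seen. The members and lists were chosen with earlier results of these data known. Alternatives were other sets of arrays in the fit, other limits, another scaling, array weights, the replicate number as a block and leaving out each array. The reporter of the interstitial cells is not reported here. Tables were made with Python 3.11.15.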

Additional observations from a re-analysis of the deposited data

Results flagged for a closer look

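These genes changed in XY germ cells by a different amount from XX germ cells, by the test of the difference itself in limma (adjusted p under 0.05). Those further up in XY were *Mgst2* (2.76), *Etv1* (2.18), *Hesx1* (2.16), *Krt222* (1.79), *Dgka* (1.61), *Lefty2* (1.40), *Lhx1* (1.35) and *Cthrc1* (1.33), as differences of the steps on the log2 scale. Those further down were *AU015836* (-3.14), *Phlda2* (-2.54), *Calcoco2* (-1.85), *Dsp* (-1.53), *Scd1* (-1.53), *Plaat3* (-1.50), *Lrrc34* (-1.45) and *Porcn* (-1.42). Only genes also called in the XY step were taken, so *Tdgf1* (2.59) and *Stra8* (-2.29) are not listed although their differences were called.

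The following changed by a different amount from XY interstitial cells, by the same test and with the same choice of genes called in the XY germ cell step. Further up in germ cells were *Mgst2* (3.05), *Sfrp2* (2.30), *Hesx1* (2.26), *Cthrc1* (2.17), *Bnc2* (2.13), *Dgka* (1.97), *Tnnt1* (1.77) and *Ccl25* (1.77). Another member cluster of *Ccl25* changed by 0.13 in XY germ cells, with a difference of the steps of -0.08, and was not called in either. Further down were *AU015836* (-4.83), *Rtn4rl1* (-3.27), *H2bc4* (-2.51), *Dsp* (-2.43), *Phlda2* (-2.30), *Mt2* (-2.14), *Gtsf1l* (-2.05) and *Sct* (-1.95). In germ cells alone the changes of *Rtn4rl1*, *Sfrp2* and *Sct* were not over 2-fold, and each lost its call in several fits without 1 array. Groups of 3 arrays were not examined for outlying samples.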

How the results depend on the processing

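In clusters, 175 were higher and 207 lower at E12.5 in XY germ cells, 40 and 68 differed from the XX step, and 227 and 228 from the interstitial step. Without a fold limit 292 and 324 changed with stage. With a fold over 2 the counts were 50 and 65, 22 and 36, and 105 and 112. By the methods' limits (unadjusted p) the differences from the XX step were 152 and 317 and from the interstitial step 524 and 471. With array weights they were 85 and 159, and 393 and 360. With only the compared arrays 42 clusters were further down than in XX, and with the 18 germ cell arrays 26 were further up and 37 further down. Leaving out 1 array at a time gave 129 to 168 higher and 150 to 189 lower, 29 to 39 and 34 to 55 against XX, and 176 to 208 and 181 to 206 against interstitial cells. Deviations of same-numbered XY germ cell arrays of E11.5 and E12.5 correlated at -0.059, 0.084 and 0.122, which is too little to decide whether samples were paired. Pairing of XY with XX arrays of the same stage was not examined. With the replicate number as a block the counts were 178 and 210, 34 and 55, and 237 and 234. Of 84 called named genes 48 kept their call under every alternative run and 0 reversed. The cause of these shifts was not tested.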
